A study of Mus musculus with 5 samples.

Results

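Barcodes with transcripts of the GABA-synthesizing enzymes Gad1 and Gad2 and of the transcription factors Meis2 or Foxp2 were followed in droplet single-cell RNA sequencing of newborn mouse hippocampus. A barcode was kept with at least 500 detected genes, at least 1000 unique molecular identifiers (UMIs, each of which tags 1 captured transcript) and at most 15% of UMIs from mitochondrial genes. It was a member with at least 2 UMIs of Gad1 and Gad2 together, at least 2 of Meis2 or at least 1 of Foxp2, and 0 of Lhx6, Neurod6, Mki67 and Top2a. The rule took 124 of 30699 kept barcodes. The members were chosen by their counts of these 8 genes, so those counts support no result.

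The study asked what Trem2, a receptor of microglia, does for developing neurons. Its 5 libraries came from pups at postnatal day 1, 3 from wild-type animals (replicates 1, 2 and 3) and 2 from Trem2 knockout animals (replicates 2 and 3). Each library pooled the hippocampi of 2 pups, dissociated with papain. Both libraries numbered 2 were described as male only and the other 3 as mixed, although a separate sex label gave both sexes for every library. The labels name neither the Trem2 allele nor the strain, and nothing ties a knockout library to a wild-type litter.

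Many GABA neurons of the forebrain are born in the ganglionic eminences. The medial eminence gives rise to interneurons that keep Lhx6, many of which make somatostatin. The caudal eminence supplies interneurons with Adarb2 or Htr3a, many with cholecystokinin or reelin. Meis2, a homeodomain factor that works with Pbx partners, and Foxp2, a forkhead factor, are known from neurons of the lateral eminence, whose descendants settle in the striatum, amygdala and olfactory bulb. Zic genes encode zinc-finger factors known from the septum and other midline tissue. Ccnd2, a D-type cyclin, is known from precursors and young neuroblasts.

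The members numbered 18, 7 and 44 in wild-type replicates 1, 2 and 3, and 8 and 47 in knockout replicates 2 and 3. Wild-type replicate 2 and knockout replicate 2 thus rest on very few cells. Total UMIs in the deposited matrices ranged from 60024793 to 91205882 per library. Wild-type members had medians of 4657, 6547 and 7268.5 UMIs per barcode, and knockout members 10898.5 and 10485. Knockout members were the deeper ones and the groups did not overlap (two-sided exact permutation p = 0.1, the smallest that 3 libraries against 2 can give). The same held for detected genes, with medians from 2146.5 to 3063 against 3626.5 and 3799 (exact permutation p = 0.1). Over all kept barcodes the genotypes overlapped, with medians of 8670, 9255.5 and 7866.5 UMIs in the wild type and 8729 and 9293 in the knockout. Depth of the members and genotype thus go together in every genotype value below, and the part of depth in these values was not tested. Pairs of libraries shared 8 to 21 kept barcode sequences, and 2 such pairs held 1 member each. Members with high doublet scores numbered 19, and they were kept in the main analysis.

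As a share of kept barcodes the members made up 0.283%, 0.148% and 0.517% of the wild type, against 0.143% and 0.853% of the knockout. The 2 knockout libraries were the lowest and the highest, so the genotypes overlapped (exact permutation p = 0.7). As a share of all 1454 inhibitory barcodes they made up 9.89%, 8.43% and 9.13% in the wild type, against 3.40% and 9.96% in the knockout. Knockout replicate 2 stood below the other 4 libraries (exact permutation p = 0.5). The differences turned with single knockout libraries. The knockout minus wild-type difference in the share of kept barcodes was 0.182 points, and it was -0.173 points without knockout replicate 3. The difference in the share of inhibitory barcodes was -2.47 points, and it was 0.807 points without knockout replicate 2.

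Many members lay close to the edges of the rule. Meis2 alone took in 93 members, Foxp2 alone 15, and both 16. Of all members, 36 had exactly 2 Gad UMIs, and 155 barcodes outside the rule had 1 and met the rest of it. Of the members without Foxp2, 22 had exactly 2 Meis2 UMIs, and 52 barcodes outside had 1. Lhx6 alone kept out 31 barcodes and Neurod6 alone 121. Meis2 was not restricted to inhibitory cells in this tissue. At least 2 of its UMIs were present in 57.4% of 11485 barcodes with at least 2 UMIs of the excitatory factor Neurod6, and at least 2 Gad UMIs in 2.97% of the same barcodes.

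The members were therefore checked against other markers. Slc32a1, the vesicular GABA transporter, had a UMI in 54.8% of members, 76.1% of Lhx6 interneurons and 1.44% of excitatory cells (Neurod6 at least 2 and no Gad UMI), at median depths of 9235, 9587.5 and 10117.5 UMIs. A Dlx gene, of the family that specifies forebrain GABA neurons, was detected in 104 of 124 members. Neither a Dlx gene nor Slc32a1 was detected in 16 members, of which 15 lay in the 2 subclusters led by glial or granule-cell genes described next. Ccnd2, a marker proposed for these cells, had a UMI in 46.0% of members but also in 41.6% of excitatory cells, so by itself it did not set them apart. After thinning every barcode to 3000 UMIs the Ccnd2 shares were 33.6% and 19.1%, with 5 members and 177 excitatory cells left out as too shallow.

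Clustering the 124 members alone gave 6 subclusters, which are described by their leading genes and carry no test. The largest, with 32 members, was led by Ntng1 (netrin-G1, a presynaptic adhesion molecule), Rgs4 and Chrm2, and Slc32a1 was detected in 29 of them. A group of 28 was led by Zic1, Zic4 and Zic2. A group of 23 was led by Tiam2, Ccnd2 and Dlx6os1, with a median of only 4215 UMIs. A group of 11 was led by Tshz1, Six3 and Foxp2, with a median of 4375 UMIs. The label did not hold for the remaining 2 subclusters. One of 19 members was led by the glial genes Apoe, Fabp7 and Slc1a3, 9 of its members had high doublet scores, Slc32a1 was detected in 6 and a Dlx gene in 11. The other, of 11 members, was led by Neurod1, Prox1 and Bhlhe22, genes of dentate granule cells. Slc32a1 was detected in 1 of these and a Dlx gene in 3. Together the 30 barcodes make up 24.2% of the members, and results below are given with and without them where they change. Only members were assigned to subclusters, so nothing was left out of the classes they are compared with.

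**Figure D1:**
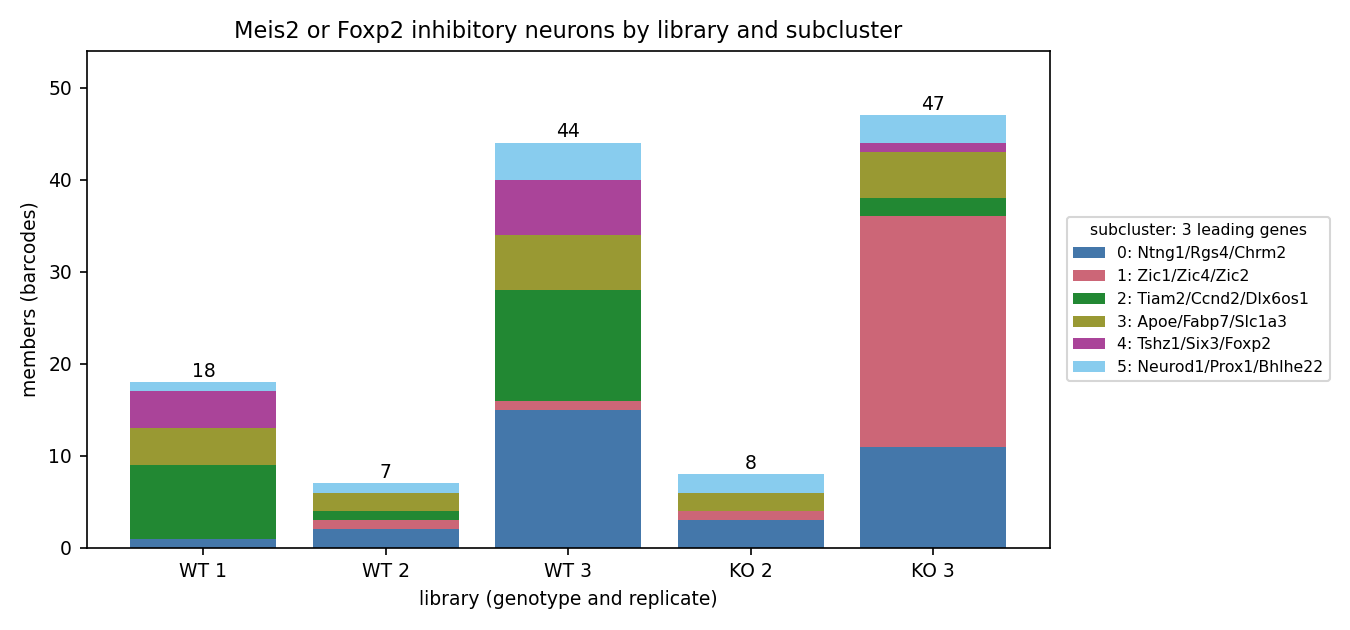
Number of members (barcodes, y axis) in each library (x axis), stacked by subcluster with its 3 leading genes. Knockout replicate 3 holds 25 of the 28 members of the Zic-led subcluster.

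Knockout replicate 3 stood apart in its number of Zic-led members. It held 25 of the 28 members of the Zic-led subcluster, while wild-type replicates 1, 2 and 3 and knockout replicate 2 held 0, 1, 1 and 1. A UMI of any Zic gene was present in 28 of its 47 members, and in 2, 3, 3 and 4 members of the others in the same order. As shares of members these were 59.6% against 11.1%, 42.9%, 6.82% and 50%, so both small libraries numbered 2 lay near it in share, on 3 and 4 barcodes. Without the glial and granule subclusters the summed level of 7 septal and Zic genes was 1459 CPM (UMIs scaled to 1000000 of the class) in wild-type replicate 2, 1094 CPM in knockout replicate 2 and 1803 CPM in knockout replicate 3. It was 29.1 and 0 CPM in wild-type replicates 1 and 3. The sums of wild-type replicate 2, knockout replicate 2 and knockout replicate 3 rest on 4, 4 and 39 barcodes. The shares above include 12 members with a Zic UMI that lay in the glial and granule subclusters. Zic genes are known from tissue next to the hippocampus, and whether such tissue entered a library was not tested. A subcluster that comes mostly from 1 library may reflect that library and not a cell type. Zic RNA was also common outside these neurons, in 32.4% to 45.5% of all kept barcodes per library. In Lhx6 interneurons the share was 3.33% to 7.14%.

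Within members the Zic genes came together. At least 2 of the 5 Zic genes were detected in 31 members, all 5 in 14, and exactly 1 in 9. Knockout replicate 3 held 26 of the 31. Isl1, a LIM-homeodomain factor known from striatal and septal neurons, had 40 UMIs in 17 members, and all 17 belonged to the Zic-led subcluster. No UMI of Isl1 was found in 656 Lhx6 interneurons, which allows up to 0.457% of them to hold a UMI and sets no limit on cells that express it. Six3, a homeobox factor of the ventral forebrain, was detected in 23 members, 9 each in the Zic-led and the Tshz1-led subcluster. It was seen in 18.5% of members, 0.152% of Lhx6 interneurons and 0.599% of excitatory cells. Ntng1 marked other cells, since 7 of its 42 members also had a Zic UMI.

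**Figure D2:**
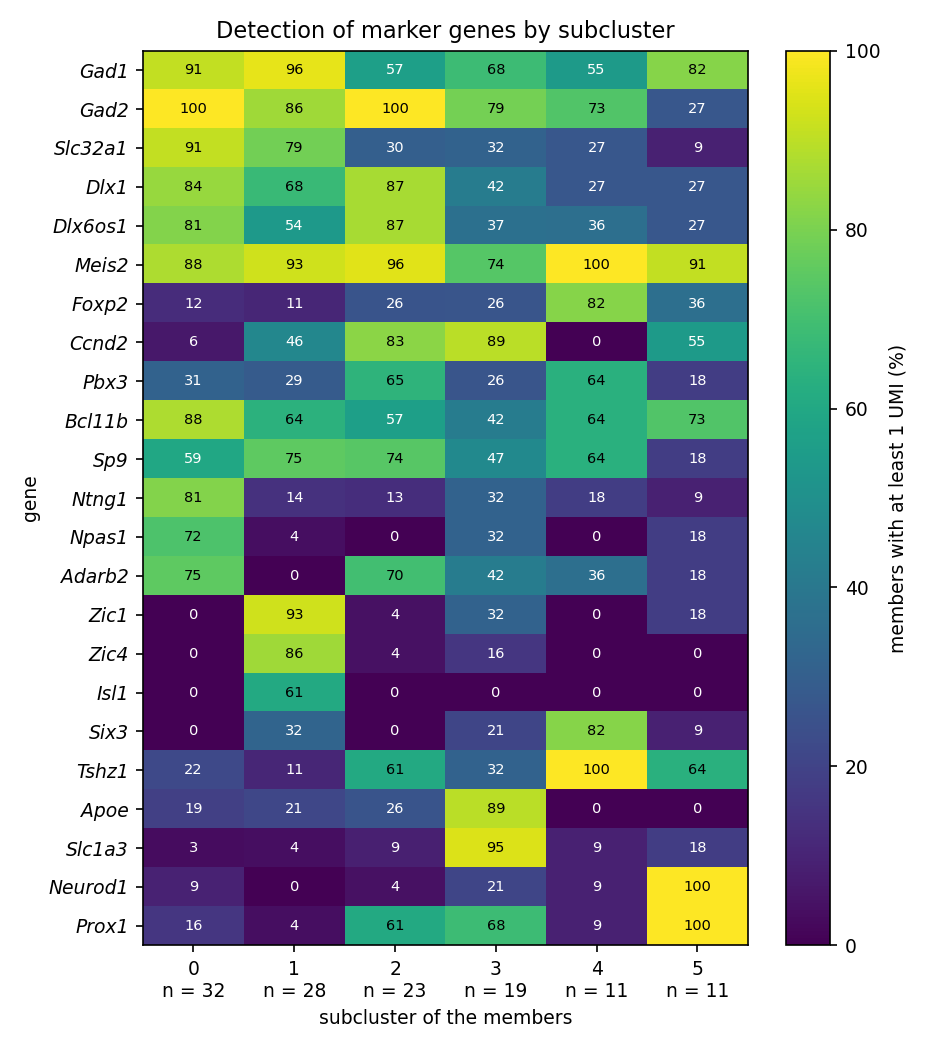
Percentage of members with at least 1 UMI (colour) for marker genes (y axis) in the 6 subclusters (x axis, with the number of members). Zic genes and Isl1 mark subcluster 1, Ntng1 marks subcluster 0, and Apoe and Slc1a3 mark subcluster 3.

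Promoters of 11 genes that lead the subclusters or the results were searched for TGACAG or its reverse complement CTGTCA, the core letters bound by MEIS factors, in the 250 bases before the start site. RefSeq windows on GRCm38.p6 were used, 13 in all, and 2 held the motif, those of Zic4 and Six3. Of all 32851 RefSeq windows of this length 15.9% held it, so the members' share is near that of promoters at large. The Six3 and Zic1 windows are shown because Six3 is a leading gene of the Tshz1-led subcluster and Zic1 leads the Zic-led one, and of the pair only Six3 has the letters (in capitals). They lie at chr17:85620584-85620833 on the plus strand and chr9:91365811-91366018 on the minus strand, the latter without its transcribed part.
Six3: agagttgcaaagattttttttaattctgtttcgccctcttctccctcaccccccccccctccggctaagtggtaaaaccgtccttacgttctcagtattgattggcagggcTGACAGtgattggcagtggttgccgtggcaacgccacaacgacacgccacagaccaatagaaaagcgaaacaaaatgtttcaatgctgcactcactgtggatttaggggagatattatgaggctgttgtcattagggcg
Zic1: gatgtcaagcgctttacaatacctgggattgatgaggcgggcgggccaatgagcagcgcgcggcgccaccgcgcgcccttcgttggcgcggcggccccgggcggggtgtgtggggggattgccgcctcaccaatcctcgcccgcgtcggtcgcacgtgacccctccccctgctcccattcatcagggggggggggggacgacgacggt

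Effector genes of striatal projection neurons were detected unevenly. Of the dopamine receptors, Drd1 was detected in 2 members and Drd2 in 6. The enkephalin precursor Penk was detected in 4 members. Ppp1r1b and Adora2a had no UMI in any member. Genes of the same list that other neurons also express were common, with Cnr1 in 79 members, Pde10a in 66, Gnal in 53, Adcy5 in 28 and Rgs9 in 13. Pde10a was detected in 53.2% of members, 68.4% of Lhx6 interneurons and 54.1% of excitatory cells. Summed over the 18 genes the list stood at 495 to 998 CPM in members, 363 to 567 CPM in Lhx6 interneurons and 2527 to 3049 CPM in the caudal type defined below. Cnr1, which is also on the list of caudal eminence markers, made up most of the caudal sum. That sum therefore does not show more RNA of the other genes on the list. Gata3, a factor of midbrain GABA neurons, and Lhx8, of basal forebrain cholinergic neurons, had none either. Such a 0 allows up to 2.42% of members to hold a UMI. It sets no limit on cells that express the gene. Of the 12 diencephalic and midbrain genes on the list of Gata3, 4 were detected. They were Nkx2-2 in 5 members, Tcf7l2 in 4, Tal1 in 2 and Otx2 in 1. Without the glial and granule subclusters, 2 of the 12 were detected. Nkx2-1, listed with Lhx8 among 7 septal and Zic genes, was detected in 3 members.

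Which genes set the members apart from interneurons of the medial type was tested against 656 Lhx6 interneurons of the same 5 libraries (at least 2 Gad UMIs and at least 1 of Lhx6). UMIs were summed per library and class, and levels are given as CPM, the count of a gene scaled to 1000000 UMIs of that sum. Ntng1 was at 190, 184 and 295 CPM in wild-type members and 256 and 236 CPM in knockout members. In the Lhx6 class it lay between 2.63 and 19.9 CPM, so every library placed the members far above. The log2 difference was 4.10 (SE 0.24, adjusted p = 2.0e-08, edgeR quasi-likelihood test with Benjamini-Hochberg adjustment). Islr2, a membrane protein of growing axons, was at 219, 311, 182, 198 and 303 CPM in the members of the 5 libraries. The Lhx6 class had 8.96 to 26.3 CPM (log2 difference 3.59, SE 0.20). Pcp4, a calmodulin-binding peptide, was at 146, 198, 649, 429 and 655 CPM against 31.3 to 63.1 CPM (3.47, SE 0.27). These 3 differences were also past the threshold in each alternative that gave a value.

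Transcription factors of the lateral eminence were higher in part. Of 522 genes past an adjusted p of 0.05 among 6433 tested (8.11%), 255 were higher in the members (3.96%) and 267 lower (4.15%). Of 6 tested lateral eminence and striatal factors, 3 were higher and 1 lower, with a median log2 difference of 1.10 against 0.01 over all genes. Without the 2 subclusters 5 were higher and 1 lower, with a median of 1.41. Pbx3, a partner of Meis proteins, was higher by 2.77 (SE 0.35). Bcl11b, known as Ctip2 and needed in striatal projection neurons, was at 182, 297, 340, 330 and 275 CPM against 67.8 to 116 CPM, which is 1.64 higher (SE 0.15). Mef2c, an activity-regulated factor, was lower by 2.71 on the log2 scale (SE 0.17). Genes of dorsal lateral eminence and neuroblasts were higher in 4 of 10 tested. Ccnd2 was at 620, 325, 372, 206 and 137 CPM in the members against 7.64 to 42.1 CPM in the Lhx6 class (log2 difference 4.14, SE 0.35, and 4.75 without knockout replicate 3). Igfbpl1 was 2.75 higher (SE 0.18), but it had a UMI in 94.0% of excitatory cells. Adarb2, a marker of caudal eminence interneurons that the rule did not use, was 3.04 higher (SE 0.31).

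Markers of the medial eminence were lower in 9 of 11 tested, with a median of -2.43. The rule asks for 0 Lhx6 UMIs in members and at least 1 in the other class, so this count is a description. Sst (somatostatin) was at 7.29, 0, 81.8, 8.25 and 124 CPM in the members and 1626 to 3005 CPM in the Lhx6 class. The log2 difference was -4.85 (SE 0.35), and -5.61 without knockout replicate 3, the library where Sst was highest in members. Npy was lower by 3.13 on the log2 scale (SE 0.32), and by 3.73 without that library. Nxph1, a secreted neurexin ligand, and Satb1, a chromatin organizer, were lower by 2.13 (SE 0.17) and 1.88 (SE 0.22).

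Receptor and migration genes were called in both directions. Of 16 glutamate receptor genes tested, 1 was higher and 5 were lower, among them Gria1 at -1.69 (SE 0.15) and Grin3a at -1.57 (SE 0.30, and -2.19 without wild-type replicate 3). Of 12 GABA-A receptor and chloride transport genes, 2 were higher and 3 lower. Of 21 migration genes 6 were higher and 6 lower, with Robo2, a Slit receptor, at -1.37 (SE 0.23) and Epha5, an ephrin receptor, at -1.45 (SE 0.15). Presynaptic and neurite maturation genes were lower in 10 and higher in 2 of 21 tested, with a median of -0.39, and without the 2 subclusters lower in 3 and higher in 1. Nuclear subunits of complexes II to V of the respiratory chain were lower in 12 of 39 (median -0.32) and those of complex I in 4 of 36 (median -0.22). Without the 2 subclusters these counts were 3 and 1, with medians of -0.23 and -0.20.

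Glial and granule-cell genes were also called higher, and these calls turned with the 2 subclusters. Apoe was higher by 3.70 in all members and lower by 1.66 without those 30 barcodes (adjusted p = 1.3e-05 and 0.00042, edgeR). Fabp7 was at 4.13 and -1.23, and Prox1 at 2.54 and 0.35, the last not past the threshold. The 30 barcodes were left out of the members only, by subclusters that these genes lead, while the Lhx6 class kept all its barcodes. The negative values of Apoe and Fabp7 therefore cannot show that the members hold less of them. Summed over 9 glial markers, all of them detected, the members had 770 to 1570 CPM in the wild-type and 345 to 973 CPM in the knockout libraries. Without the 2 subclusters the sums were 0 to 58.1 and 0 to 6.64 CPM, with Olig2, Pdgfra, Sox10 and Cspg4 at 0. The test then called 280 of 5931 genes, 220 of which were also called with all members. Ntng1 (4.62), Pcp4 (3.66), Islr2 (3.53), Pbx3 (3.30), Ccnd2 (3.84) and Bcl11b (1.92) were higher there too. Single libraries changed, however. Pcp4 then had 0 UMIs in wild-type replicate 2. Ccnd2 was at 22.3 CPM on 1 UMI in knockout replicate 2, within the range of the Lhx6 class.

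**Figure D3:**
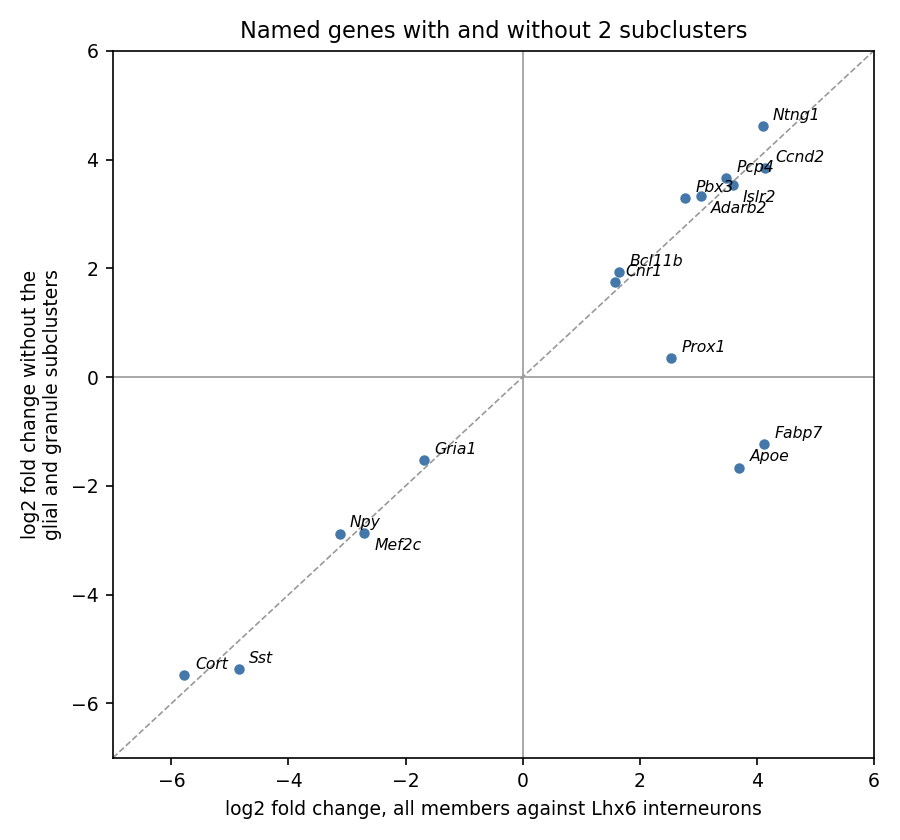
Log2 fold change against Lhx6 interneurons for 16 genes, with all members (x axis) and without the 2 subclusters led by glial and granule-cell genes (y axis), with the dashed line marking equality. Apoe and Fabp7 change sign, while Ntng1, Islr2 and Pcp4 lie near the line. The subclusters were left out of the members only.

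The second comparison was with 368 interneurons of the caudal type (at least 2 Gad UMIs, at least 2 of Adarb2 or 1 of Htr3a, at most 1 of Meis2 and none of Foxp2, Lhx6, Neurod6, Mki67 and Top2a). Of 6128 genes tested, 309 passed the threshold (5.04%), 159 higher in the members (2.59%) and 150 lower (2.45%). Pcp4 lay at 10.4 to 46.3 CPM in the caudal type, below every library with all members counted (log2 difference 4.11, SE 0.35, adjusted p = 1.4e-06, edgeR). Without the glial and granule subclusters wild-type replicate 2 had 0 UMIs of Pcp4. Of 6 tested lateral eminence and striatal factors 3 were higher and 1, Mef2c (-1.03), was lower (median 0.56). Genes of dorsal lateral eminence and neuroblasts were higher in 4 and lower in 1 of 10 tested (median 0.43). Sp9, a zinc-finger factor of lateral eminence neuroblasts, was at 175, 70.7, 185, 57.7 and 163 CPM in the members. The caudal type had 15.1 to 38.3 CPM (2.18, SE 0.24). In the Lhx6 class Sp9 overlapped the members, at 123 to 195 CPM. Bcl11b was 1.69 higher (SE 0.16) and Nxph1 2.41 higher (SE 0.39, and 3.00 without wild-type replicate 3). Ccnd2 was 1.93 higher (SE 0.27), but did not pass among members with at least 4 Gad UMIs, of which wild-type replicate 2 had 0. Nrp1, a semaphorin and VEGF receptor, was 1.10 higher (SE 0.18), but 0.58 and not past the threshold without barcodes with excitatory RNA, and 87.9% of excitatory cells had a UMI of it.

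Markers of the caudal eminence were lower in 8 of 12 tested (median -1.61 against 0.00 over all genes), and in 9 of 12 without the glial and granule subclusters. Adarb2 and Htr3a chose the other class and are not counted. Genes that go with them can be high in that class through this choice, so the count is a description. Cnr1, the cannabinoid receptor CB1, was at 459, 240, 609, 701 and 360 CPM in the members, 2296 to 2819 CPM in the caudal type and 131 to 190 CPM in the Lhx6 class. The members thus lay between the classes in every library (log2 difference -2.41, SE 0.16, from the caudal type and 1.59, SE 0.18, from the Lhx6 class). Cck was at 21.9, 0, 95.0, 41.2 and 24.1 CPM against 579 to 1315 CPM (-4.17, SE 0.33, and -5.22 without wild-type replicate 3). Nr2f2, the factor COUP-TFII, was lower by 1.68 (SE 0.30), Npas1 by 1.89 (SE 0.21) and Erbb4, the neuregulin receptor, by 1.30 (SE 0.27). Ntng1, which set the members apart from the Lhx6 class, was at 151 to 277 CPM in the caudal type and did not pass here.

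Dlx1 (-0.82), Dlx2 (-0.90) and Slc32a1 (-0.66) were lower than in the caudal type with all members but not without the glial and granule subclusters, at -0.37, -0.55 and -0.22. The Slc32a1 call held in 4 of 15 alternatives and was also lost in DESeq2 (-0.74) and with single libraries left out, namely wild-type replicates 1 (-0.54), 2 (-0.59) and 3 (-0.77) and knockout replicate 2 (-0.64). That of Dlx2 was also lost without wild-type replicate 3 (-0.87). Leaving out those subclusters gave 228 calls, of which 166 were called with all members, and leaving out wild-type replicate 3 gave 196. Immediate early genes, which respond to activity and to tissue dissociation, were higher in 7 of 10 tested (median 1.33), and in 3 of 10 against the Lhx6 class (median 0.35). These calls moved with the same subclusters. Without them 0 of 9 passed against the caudal type (median 0.02), and against the Lhx6 class 2 of 10 were lower and none higher (median -0.43). Of 36 complex I subunit genes 0 passed in edgeR or DESeq2 (median -0.11), with 4 at an unadjusted p under 0.05, all lower.

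**Figure D4:**
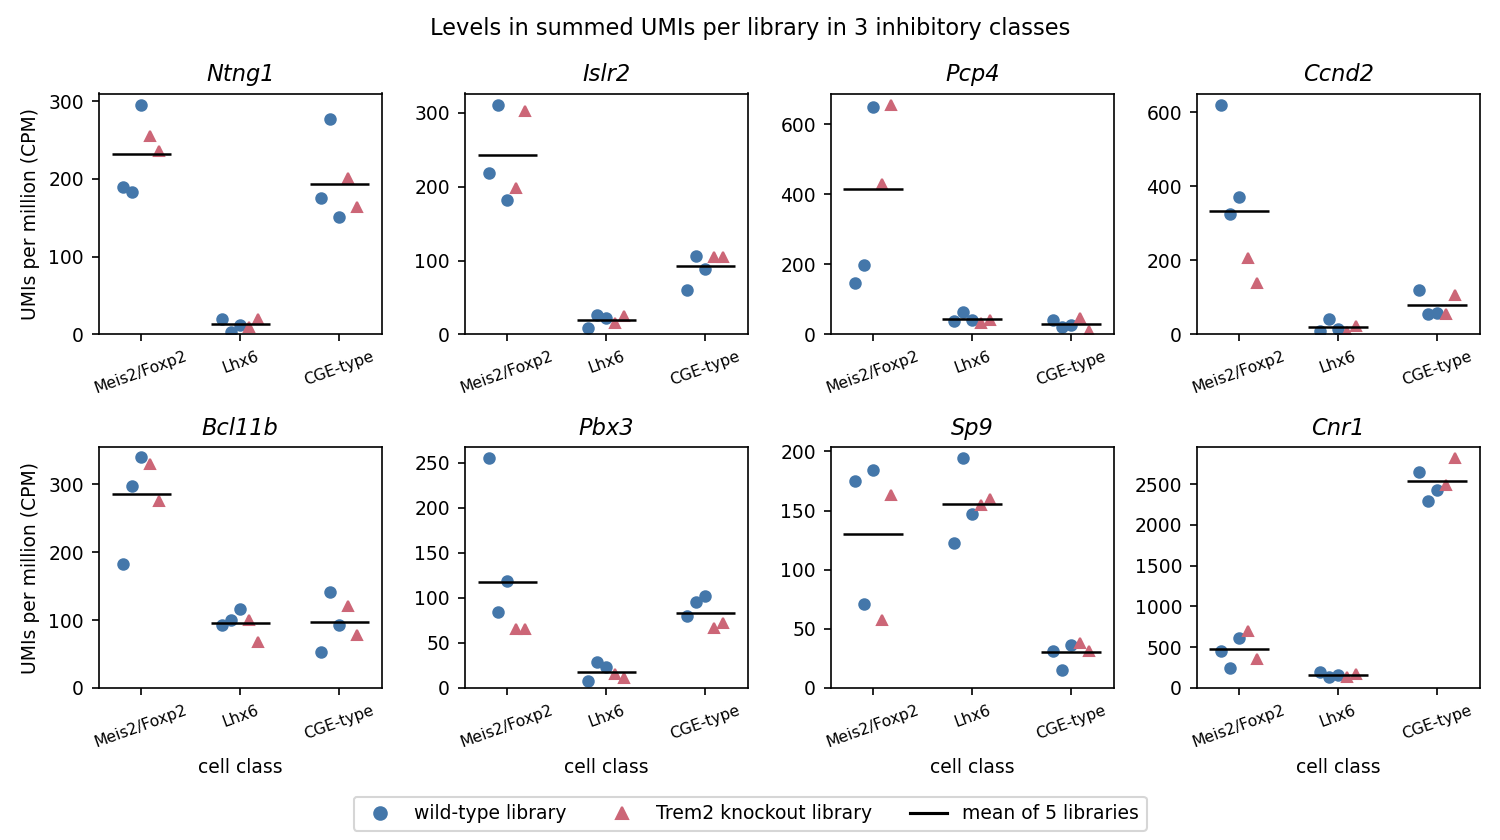
CPM (y axis) of 8 genes in the 3 inhibitory classes (x axis), with 1 point per library (circles wild type, triangles knockout) and a bar at the mean of 5 libraries. With all members counted, Islr2 and Pcp4 are highest in the Meis2/Foxp2 members, and Cnr1 is highest in the caudal type at 2296 to 2819 CPM.

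Members with a Foxp2 UMI were compared with those taken in by Meis2 alone, in the 4 libraries that had both, since knockout replicate 2 had no Foxp2 member. The 31 Foxp2 members numbered 9, 2, 9 and 11 in wild-type replicates 1, 2 and 3 and knockout replicate 3. The Foxp2 members held 38637, 33107, 63270 and 87475 UMIs in all and the others 98541, 37595, 315855 and 451154, so the Foxp2 side was counted less deeply in every library. Of 1447 genes tested, 2 passed (0.138%), both lower with Foxp2. Ntng1 was at 25.9, 0, 15.8 and 11.4 CPM with Foxp2 and at 254, 346, 351 and 279 CPM without (log2 difference -4.37, SE 0.49, adjusted p = 0.0049, edgeR). The groups did not overlap. Leaving out wild-type replicate 3 gave -4.33, no longer past the threshold (adjusted p = 0.29). Cnr1 was at 51.8, 151, 158 and 126 CPM with Foxp2 and 619, 319, 700 and 406 CPM without (-1.99, SE 0.31, adjusted p = 0.048). It did not pass without any 1 of the 3 wild-type libraries, at -1.72, -2.17 and -1.90 in replicate order. Without wild-type replicate 3 the test called 0 genes, and without knockout replicate 3 it called 16. Tshz1 was detected in 19 and Six3 in 10 of the 31 Foxp2 members.

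Knockout and wild-type members were compared last. Trem2 had no UMI in the members of any library, which allows up to 42.4 CPM in the smallest and 5.57 CPM in the largest, so the knocked-out gene could not check the labels in these cells. In edgeR 1 gene of 3089 passed (0.0324%), and 200 had an unadjusted p under 0.05 (6.47%). Mfge8, which encodes a secreted bridge between dying cells and phagocytes and is made by astrocytes, was at 219, 212 and 171 CPM in wild-type members and 24.7 and 35.3 CPM in knockout members. The groups did not overlap and the log2 difference was -2.57 (SE 0.36, adjusted p = 0.019, edgeR). Groups did not overlap for 23.4% of all genes tested. Mfge8 passed the filter on low counts through the wild-type libraries only, so its direction follows in part from that filter. Mfge8 was detected in 19 members, 16 of which lay in the subcluster led by Apoe and Slc1a3. The sums of glial markers overlapped between genotypes, at 787, 1570 and 770 CPM against 973 and 345 CPM, and their part in the Mfge8 value was not tested. Leaving out wild-type replicate 1 ended the call (-2.47, adjusted p = 0.36). It was also lost with at least 4 Gad UMIs (-2.13), with at least 3 Meis2 UMIs (-2.04), without barcodes with excitatory RNA (-2.37) and with the replicate block (-2.46). Wild-type replicate 2 had 0 members with at least 4 Gad UMIs and dropped out of that fit. Without the 2 subclusters only 3 UMIs of Mfge8 were left, too few to test.

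Zic genes had higher values in the knockout libraries, but none passed, and 25 of the 28 Zic-led members came from knockout replicate 3. Whether tissue next to the hippocampus has a part in these values was not tested. Zic1 (chromosome 9, 91358058 to 91365810, mm10) was at 7.29, 198 and 2.64 CPM in wild-type members and 206 and 752 CPM in knockout members. Wild-type replicate 2 reached the level of knockout replicate 2 (log2 difference 3.98, SE 0.87, adjusted p = 0.16, edgeR). Without wild-type replicate 2 the difference was 6.92 and without knockout replicate 3 it was 2.54, and both passed (adjusted p = 0.0022 and 0.0074). In the last fit knockout replicate 2 stands alone with 25 Zic1 UMIs and is assumed to vary as the wild type does. Zic2, Zic4 and Zic5 passed, like Zic1, with replicate 2 of either genotype left out. Zic5 was at 7.29, 42.4 and 7.91 against 107 and 139 CPM, the smallest p among genes that were higher (3.31, SE 0.59, adjusted p = 0.11). Being low in every wild-type library, it passed the filter on low counts through the knockout libraries only. Zic4 lies beside Zic1 on the opposite strand, and how reads were divided between these genes was not tested. Of 7 septal and Zic genes 4 were tested, and all 4 had positive differences (median 3.59 against -0.00 over all genes). Each was at an unadjusted p under 0.05 in edgeR, and DESeq2 called 0. A gene low in every wild-type library, as Zic5 was, could enter only through the knockout libraries. The shared direction is thus a description.

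Of 15 genes of the dorsal lateral eminence and neuroblast list 9 were tested, and all 9 had negative differences (median -0.95). In edgeR 0 passed, 4 had an unadjusted p under 0.05, and DESeq2 called 0. Tshz1, a factor of olfactory bulb neuroblasts, was at 153, 141 and 174 CPM in wild-type and 57.7 and 44.6 CPM in knockout members (-1.72, adjusted p = 0.16, edgeR). It passed the filter on low counts through the wild-type libraries only. Ccnd2 was at 620, 325 and 372 against 206 and 137 CPM (-1.45, adjusted p = 0.16), and at -2.43 without the glial and granule subclusters, where it passed (adjusted p = 0.029). Pantr1, a long noncoding RNA of chromosome 1, was at 292, 156 and 214 against 74.2 and 68.7 CPM (-1.67, adjusted p = 0.16). Their groups did not overlap, as for 23.4% of genes. Without knockout replicate 2 they passed, at -1.80, -1.65 and -1.67 (adjusted p = 0.02, 0.0036 and 0.012), with knockout replicate 3 alone on its side. The subcluster led by Tiam2 and Ccnd2 had 8, 1 and 12 members in the wild-type and 0 and 2 in the knockout libraries. Its part and that of depth in these values were not tested. Genes of energy metabolism, which the study's title names, had 0 calls in edgeR and DESeq2 in 3 lists. Differences were positive for 25 of 36 complex I subunit genes (median 0.07, 1 at an unadjusted p under 0.05). They were positive for 27 of 39 genes of complexes II to V (median 0.13, 0 at an unadjusted p under 0.05) and for 8 of 12 mitochondrially encoded genes (median 0.10, 1 at an unadjusted p under 0.05).

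**Figure D5:**
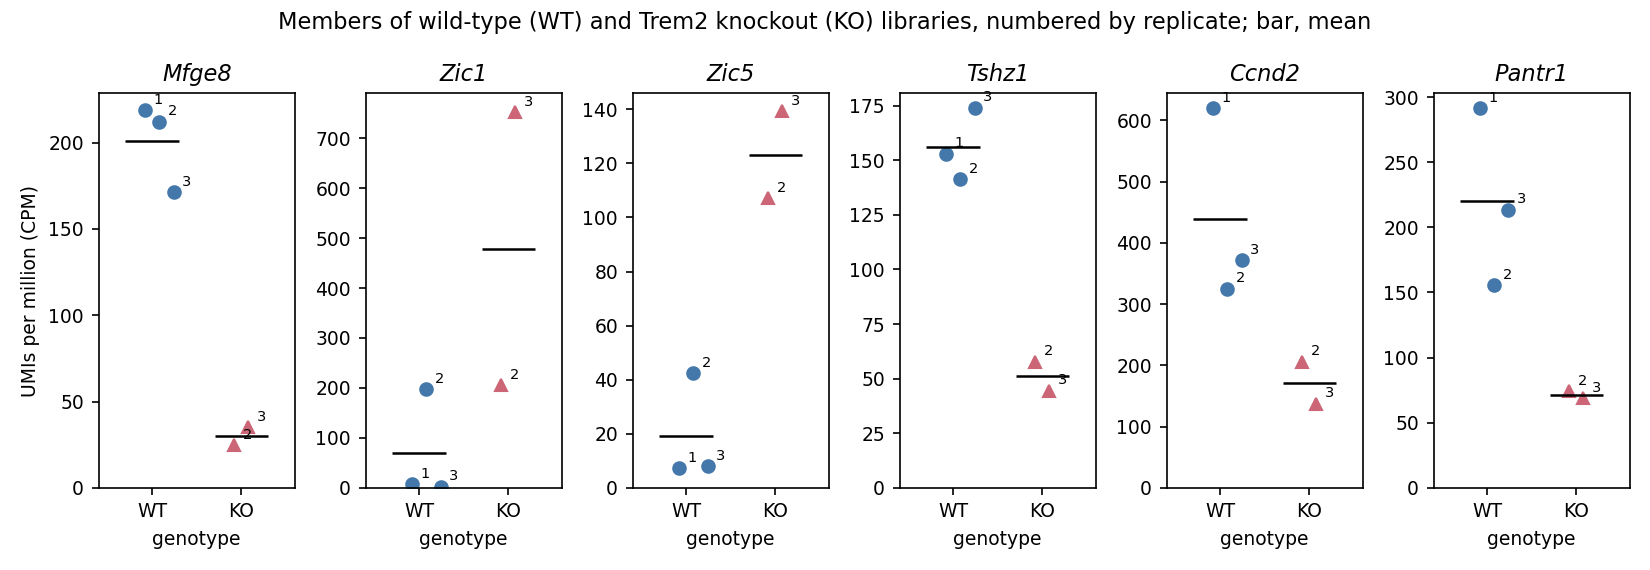
CPM (y axis) in the members of each wild-type and knockout library (x axis, points numbered by replicate, bar at the mean) for 6 genes. Mfge8 is at 171 to 219 CPM in the wild type and below 36 CPM in the knockout, and Zic1 in wild-type replicate 2 lies near knockout replicate 2.

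Leaving out 1 library moved the number of genotype calls from 1 to 0 (wild-type replicate 1), 8 (wild-type replicate 2), 73 (knockout replicate 2) or 16 (knockout replicate 3). DESeq2 called 2 genes, with 68 at an unadjusted p under 0.05. Whether the genotype effect differed from that in Lhx6 interneurons was tested with an interaction term, for which 8 of 7958 genes passed (0.101%), 5 with a more positive effect in the members (0.0628%) and 3 with a more negative one (0.0377%).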

How the data were processed

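Single-cell RNA sequencing (3' chemistry v3.1) was measured in 5 libraries of postnatal day 1 hippocampus. The deposited values are raw UMI counts per gene and barcode for 32285 features. The submitters' processing notes name Cell Ranger 6.1 and mm10, and per the file headers version 6.1.1 wrote the matrices. Authors' cell types were not used here. The members and all gene lists were chosen with earlier results of these data known.

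Sums of UMIs by class within each library entered edgeR 4.0.16 (R 4.3.3; quasi-likelihood test, TMM factors, filterByExpr, Benjamini-Hochberg over all genes tested, threshold 0.05), and the library is the replicate. Between classes the library was a block. Genotype was the only term in its own comparison. There the filter asked for enough counts in as many libraries as the smaller group holds, so a gene could enter through 1 genotype alone. Each SE given with an edgeR value was derived as the absolute log2 difference divided by the square root of the F statistic. DESeq2 1.42.0 was an alternative. Nothing says how the pools relate by litter, so p-values measure only the spread between these pools. CPM scales a summed class to 1000000 UMIs. Shares and depths were compared by exact permutation over 10 assignments. Subclusters came from scanpy 1.11.5 and leidenalg 0.10.2 (2000 variable genes, 20 components, 15 neighbours, resolution 0.5). Doublet scores used an expected 0.8% per 1000 barcodes, and removal was an alternative. Genes were named by largest change or smallest p and by membership in the identity lists, rule genes left out. Subclusters go by their leading genes, and genes given only as detected in members are descriptions. The test was tried on simulated data. Positions are from GENCODE M21 on mm10. Alternatives were size factors, no filter, single libraries left out, a 10% mitochondrial limit, stricter Gad or Meis2 minimums, removal of doublets or of barcodes with excitatory RNA, a replicate block and the number of males.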

Additional observations from a re-analysis of the deposited data

Results flagged for a closer look

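The genotype effect (knockout minus wild type, log2) in the members differed from that in Lhx6 interneurons for 8 genes by an interaction term in edgeR, and all 8 are given, Xist outside the rule for named genes. For Zic1 the difference of effects was 5.61 (adjusted p = 0.0082), with 7.29, 198 and 2.64 against 206 and 752 CPM in members and 0 to 18.4 CPM in Lhx6 interneurons. It was 3.99 without knockout replicate 3 and 4.06 without wild-type replicate 3, neither past the threshold, and 7.85 without wild-type replicate 2. For Zic4 it was 8.32, from members at 0, 141 and 0 against 99.0 and 403 CPM, and rests on an Lhx6 class with UMIs in 2 libraries only, so its size depends on the prior count. It was 14.5 without wild-type replicate 2, and did not pass with wild-type replicate 1, wild-type replicate 3 or knockout replicate 3 left out.

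For Apoe the difference was 2.74, with members at 1356, 1216 and 1448 against 1303 and 841 CPM and Lhx6 interneurons at 146, 403 and 159 against 13.9 and 29.6 CPM. Apoe did not overlap between genotypes in the Lhx6 class and overlapped in the members. Leaving out knockout replicate 2 gave 2.12 and leaving out knockout replicate 3 gave 3.83. The call was lost without the glial and granule subclusters (1.18), with doublets removed (2.61) and with at least 4 Gad UMIs (1.53), and the sign turned without Zic barcodes (-2.88). Nr2f2 gave -2.34, with members at 233, 56.6 and 187 against 49.5 and 53.8 CPM and Lhx6 interneurons at 86.8 to 112 against 149 and 155 CPM, and did not pass without wild-type replicate 1 or 3. Pantr1 gave -1.71, with 195 to 250 CPM in Lhx6 interneurons of all libraries, and did not pass with any 1 of wild-type replicates 1 and 3 and knockout replicate 3 left out.

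For Xist, the RNA of the silenced X chromosome, the difference was -1.76. It had 0 UMIs in both libraries described as male only, and did not pass with any 1 of the other libraries left out (-0.39 without knockout replicate 3). Ttr, a choroid plexus gene, gave 4.51 on 34 UMIs in members of knockout replicate 3 and -2.56 without that library. Col1a2, a collagen gene, gave 7.96 on at most 8 UMIs per library of members, and wild-type replicate 2 held 96 of its UMIs in Lhx6 interneurons. It was 5.01 without wild-type replicate 2, where it did not pass, and 7.27 to 10.5 with another library left out.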

How the results depend on the processing

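Members per library were few, 7 and 8 in both libraries numbered 2, and this limits every genotype value. The numbers 2 and 3 occur in both genotypes but only as 2 pairs, and nothing in the labels ties them. Deviations of same-numbered libraries correlated at 0.117 and 0.156 over 3093 genes. With only 2 knockout libraries the values for differently numbered pairs mirror these by construction, at -0.117 and -0.156. These correlations therefore cannot decide on a pairing. With the replicate block 0 genes passed and Mfge8 was at -2.46. The 2 settings without Zic barcodes and without the glial and granule subclusters were chosen after seeing the data.

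Genotype calls (1) were 2 with DESeq2, 42 with no filter, 4 with at least 4 Gad UMIs, 0 with at least 3 Meis2 UMIs, 0 with doublets removed, 0 without excitatory RNA, 21 without Zic barcodes, 2 without the glial and granule subclusters, 29 with the number of males as covariate, and 0 to 73 with 1 library left out. Against Lhx6 interneurons (522) they were 1097 with no filter, 249 with at least 4 Gad UMIs, 347 with doublets removed, 288 without excitatory RNA, 280 without the subclusters, and 355 to 561 with 1 library left out. Against the caudal type (309) they were 641, 109 and 203 with no filter, at least 4 Gad UMIs and no excitatory RNA, and 196 to 297 with 1 library left out. For the Foxp2 split (2) they were 42 with no filter, 1 at a 10% mitochondrial limit, 1 with at least 4 Gad UMIs, 4 without Zic barcodes, 6 without the subclusters, and 0 to 16 with 1 library left out. The interaction (8) gave 1 with DESeq2, 37 with no filter, 5 with at least 4 Gad UMIs, 18 with at least 3 Meis2 UMIs, 4 with doublets removed, 43 without the subclusters, and 4 to 43 with 1 library left out. With at least 4 Gad UMIs wild-type replicate 2 had 0 members, so those fits lack its members. The cause of these moves was not tested.

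Signs turned without the glial and granule subclusters for Apoe (-1.66 and -2.03) and Fabp7 (-1.23 and -1.67) against Lhx6 interneurons and the caudal type, for the Apoe interaction without Zic barcodes (-2.88) and for that of Ttr without knockout replicate 3 (-2.56, in a range of -2.56 to 5.001 with 1 library left out). The subclusters were left out of the members only. The negative values of Apoe and Fabp7 against both classes thus cannot show lower levels in the members. The difference in the share of kept barcodes was -0.0644 points without Zic barcodes and -0.173 to 0.537 with 1 library left out. That in the share of inhibitory barcodes was 2.55 with at least 4 Gad UMIs and -5.75 to 0.807 with 1 library left out. The 2.55 includes a share of 0% in wild-type replicate 2, which had 0 members among 35 inhibitory barcodes at that limit.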
